A study of Homo sapiens with 24 samples.

Results

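AGR2, LGALS1, POSTN, BICC1 and GLIPR1 were chosen by name, as genes with a large rise at 16 h to 48 h over 0 h after HepaRG cells were replated, and they are 5 of the 11963 genes that the array's annotation names alone on a probe set. They are read by 9 probe sets, the groups of short probes that give 1 signal each, and 8 of these passed the filter on dim signals. The levels at 0 h and at 16 h to 48 h chose the genes, so they are given as a description with no test, and tests were confined to arrays at 1 h to 12 h. The 5 courses were not alike. By its brightest probe set GLIPR1 had made 89.4% of its 48 h rise (on the log2 scale) at 4 h and was highest at 16 h, POSTN levelled off between 24 h and 48 h, and AGR2, which was near the bottom of every array until 4 h, had made 26.6% of its rise at 12 h (18.2% to 35.5% with other pseudocounts) and was highest at 48 h. "Late and lasting" therefore described AGR2 and LGALS1 best, and GLIPR1 rose early.

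HepaRG is a human liver tumour line whose cells differentiate in culture into hepatocyte-like and biliary-like cells. All groups came from cultures grown in a medium with serum, insulin and hydrocortisone and then held with DMSO, which promotes differentiation, before the hepatocyte-like cells were lifted off by mild trypsin and replated sparsely. Total RNA was read on 24 one-colour Affymetrix arrays, 3 at each of 8 times: 0 h, 1 h, 4 h, 8 h, 12 h, 16 h, 24 h and then 48 h. No culture left undisturbed was among the samples, so time, detachment, low density and any change of medium cannot be told apart, and the 0 h arrays are the only baseline. These are values of mixed RNA, in which fewer cells of a type and less RNA per cell cannot be told apart.

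AGR2 is a resident of the endoplasmic reticulum, related to the protein disulfide isomerases, that mucus-secreting epithelia use in the folding of mucins. LGALS1 encodes galectin-1, a lectin that binds beta-galactoside sugars and is found both inside cells and in the matrix, and POSTN encodes periostin, a secreted matrix protein that binds integrins and is made abundantly by activated fibroblasts during repair. BICC1 is a cytoplasmic RNA-binding protein with KH and SAM domains whose loss causes cystic kidneys in mice. GLIPR1 belongs to the CAP superfamily of cysteine-rich, mostly secreted proteins and was first described in glioma, and in liver LGALS1 and POSTN are both known from activated stellate cells and fibrosis.

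Promoter sequence could be printed for only 2 of the 5 genes, AGR2 and POSTN, which were not picked by their courses. The 250 bases before the annotated gene start of each are shown, matched by symbol in RefSeq (GRCh38.p14). They lie at chr7:16805000-16805249 for AGR2 and chr13:37598769-37599018 for POSTN, both on the minus strand and written 5′ to 3′ in the direction of transcription. Capitals mark matches to TATAAA, the letters of a TATA box, or to TGANTCA, those of an AP-1 site.
AGR2: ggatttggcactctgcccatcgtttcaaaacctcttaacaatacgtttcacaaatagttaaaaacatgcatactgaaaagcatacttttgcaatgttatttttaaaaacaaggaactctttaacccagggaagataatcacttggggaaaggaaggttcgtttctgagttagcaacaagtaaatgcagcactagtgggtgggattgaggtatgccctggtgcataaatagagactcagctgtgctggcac
POSTN: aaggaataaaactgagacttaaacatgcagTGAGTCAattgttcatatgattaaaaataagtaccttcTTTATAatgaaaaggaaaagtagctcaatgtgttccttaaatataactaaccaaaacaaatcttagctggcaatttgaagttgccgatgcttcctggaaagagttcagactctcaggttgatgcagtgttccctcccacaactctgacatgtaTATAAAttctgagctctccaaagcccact
Both windows are poor in G and C, 40.4% for AGR2 and 36.4% for POSTN, beside a median of 58.0% over 35116 promoters of the same length. The POSTN window held 2 matches to TATAAA, 1 of them 29 to 24 bases before the start on the strand of transcription and 1 on the opposite strand 182 to 177 bases before it, and 1 match to TGANTCA 220 to 214 bases before it. Searched on both strands, TATAAA was found in 10.7% of all promoters and TGANTCA in 6.57%. The AGR2 window held no match to either, and neither window held the letters GGAATG known for TEAD factors, which 11.9% of all promoters held, the letters TGTTTAC known for forkhead factors (2.98%) or the pentamer CCAAT (32%). The motifs do not overlap one another here, and a match is only a run of letters.

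AGR2 (probe set 209173_at) was at 4.78, 9.07 and 8.34 signal units at 0 h, 5.28, 9.12 and 4.28 at 1 h, and 5.98, 13.99 and 9.72 at 4 h. It was at 12.9, 9.27 and 82.5 at 8 h and at 10.0, 117.7 and 110.4 at 12 h. All arrays at 0 h, 1 h and 4 h lay below their own 20th percentile of signals, and AGR2 appeared first on 1 of 3 arrays at 8 h and then on 2 of 3 at 12 h, so that the arrays of these times overlapped. At 16 h it was at 83.0, 110.4 and 126.2, at 24 h at 261.2, 443.5 and 343.1, and at 48 h at 1212, 2124 and 2215. Each of the last 2 steps left no overlap. The share of all probe sets lying apart at such neighbouring times was not counted, here or for the other genes. At 48 h AGR2 had come to percentile 87.8 to 92.5 of its array, against percentile 2.2 to 8.2 at 0 h. The mean was 1850.4 ± 554.3 at 48 h against 7.40 ± 2.29 at 0 h (SD, n = 3 each), a log2 difference of 6.15 on the log2(signal + 18.04) scale used throughout, which understates the change of dim genes. Since AGR2 was above its array's 40th percentile on 12 of 24 arrays, all from 8 h on, it passed the filter only through the arrays where it was high.

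LGALS1 (201105_at) was at 128.1, 164.0 and 231.5 at 0 h, 147.2, 139.2 and 203.1 at 1 h, 475.6, 416.5 and 415.1 at 4 h, and 1228, 1093 and 945.1 at 8 h. It was at 1747, 1715 and 1573 at 12 h, 3012, 3686 and 3571 at 16 h, 7869, 3949.9 and 6701 at 24 h, and 13888, 12361 and 14955 at 48 h. From 1 h on every time stood clear above the one before it, and 0 h overlapped 1 h alone. Galectin-1 was thus the steadiest climber of the 5, with a mean of 13735 ± 1304 at 48 h against 174.5 ± 52.5 at 0 h (SD, n = 3 each), a log2 difference of 6.19. At 24 h, replicate 2 (3949.9) was lower than the other replicates. At 12 h against 1 h, all later arrays stood above all earlier ones for 21.8% of all probe sets tested. The share at single steps was not counted.

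POSTN (210809_s_at) was at 137.1, 224.1 and 166.8 at 0 h, 94.5, 98.6 and 109.0 at 1 h, 325.9, 277.0 and 316.4 at 4 h, and 737.8, 742.9 and 826.1 at 8 h. The 3 arrays at 1 h lay below all 3 at 0 h. The brightest probe sets of the other genes showed no such dip. How many of all probe sets lay apart in this way was not counted. The dim 214981_at of POSTN differed by 1.05 in the other direction. By 210809_s_at, POSTN was at 2200.1, 1883 and 1464 at 12 h and at 3010.4, 2893 and 2447 at 16 h. It was at 4016, 4011 and 3613 at 24 h, and 3212, 4084 and 4091 at 48 h. Periostin stepped up without overlap at every time after 1 h until 24 h, and 48 h overlapped 24 h. Its mean was 3796 ± 505.6 at 48 h, against 176.0 ± 44.3 at 0 h (SD, n = 3 each), a log2 difference of 4.31, and 89.8% of it was reached at 16 h.

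BICC1 (213429_at) moved least. It was at 248.4, 217.8 and 226.2 at 0 h, 209.7, 174.1 and 280.6 at 1 h, 251.2, 398.6 and 334.8 at 4 h, and 407.0, 501.7 and 391.1 at 8 h. It was at 725.7, 700.8 and 534.9 at 12 h, 881.8, 887.1 and 891.6 at 16 h, 848.9, 873.4 and 1316 at 24 h, and 1088, 1184 and 1327 at 48 h. The arrays overlapped between all neighbouring times except 8 h and 12 h, and 12 h and 16 h, where the later arrays stood clear above the earlier ones. The mean was 1199 ± 120.4 at 48 h against 230.8 ± 15.8 at 0 h (SD, n = 3 each), a log2 difference of 2.29.

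GLIPR1 (204222_s_at) was at 331.2, 203.1 and 320.8 at 0 h, 709.6, 650.6 and 638.8 at 1 h, 4399.5, 4334 and 3949.9 at 4 h, and 5841, 8429 and 7558 at 8 h. By the brightest probe sets it was the only one of the 5 whose arrays at 1 h all lay above those at 0 h. Its probe set 204221_x_at overlapped there, at a log2 difference of 0.11. How many of all probe sets lay apart in this way was not counted. It was at 8708, 7496 and 8085 at 12 h, 10321, 10151 and 10174 at 16 h, 9189.9, 9586 and 7685 at 24 h, and 5797, 6359 and 5266 at 48 h. The arrays at 24 h lay below all at 16 h, and those at 48 h below all at 24 h, so the level at 48 h was past its peak. The mean was 5807 ± 546.3 at 48 h against 285.0 ± 71.2 at 0 h (SD, n = 3 each), a log2 difference of 4.29, with 5.11 at 16 h.

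**Figure D1:**
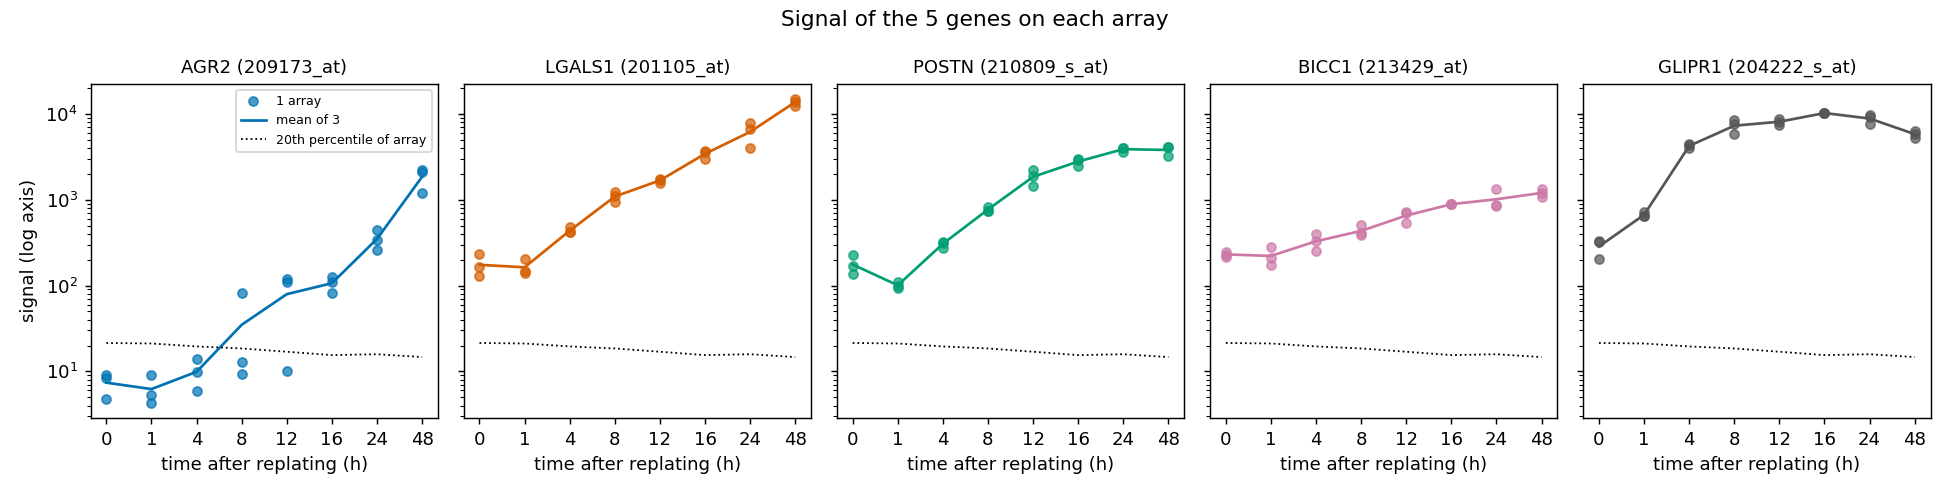
Signal of the brightest probe set of each gene on every array, on a log axis, against time after replating in hours, at equal spacing; points are arrays, lines join the means of 3, and the dotted line is the mean 20th percentile of the arrays. AGR2 stays below 15 signal units until 4 h and ends between 1212 and 2215 at 48 h, while GLIPR1 is already between 3949.9 and 4399.5 at 4 h.

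Placed among the 9966 genes tested and ordered by the log2 difference at 48 h from 0 h, LGALS1 stood at rank 2, AGR2 at 3, POSTN at 6 and GLIPR1 at 7, but BICC1 at 148. AGR2 was at the bottom of the arrays at 0 h, so the size of its difference rests on the pseudocount, the constant added before the log. The difference was 4.52 with a larger one and 7.97 with none, but the rank of AGR2 moved little, at 3 and 1. LGALS1 was at 2 and 4, POSTN at 6 and 17, GLIPR1 at 5 and 19 and BICC1 at 111 and 229. At 16 h from 0 h the ranks were 3 for GLIPR1, 16 for LGALS1, 20 for POSTN, 122 for AGR2 and 222 for BICC1. The rule states no threshold, so no gene lay just inside or outside one, and these ranks restate the values that chose the genes. At 12 h the share of the 48 h log2 difference already present was 26.6% for AGR2, 51.3% for LGALS1, 62.2% for BICC1, 75.8% for POSTN and 111.2% for GLIPR1. The share of AGR2 was 18.2% with the larger pseudocount and 35.5% with none, the lowest of the 5 with each.

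**Figure D2:**
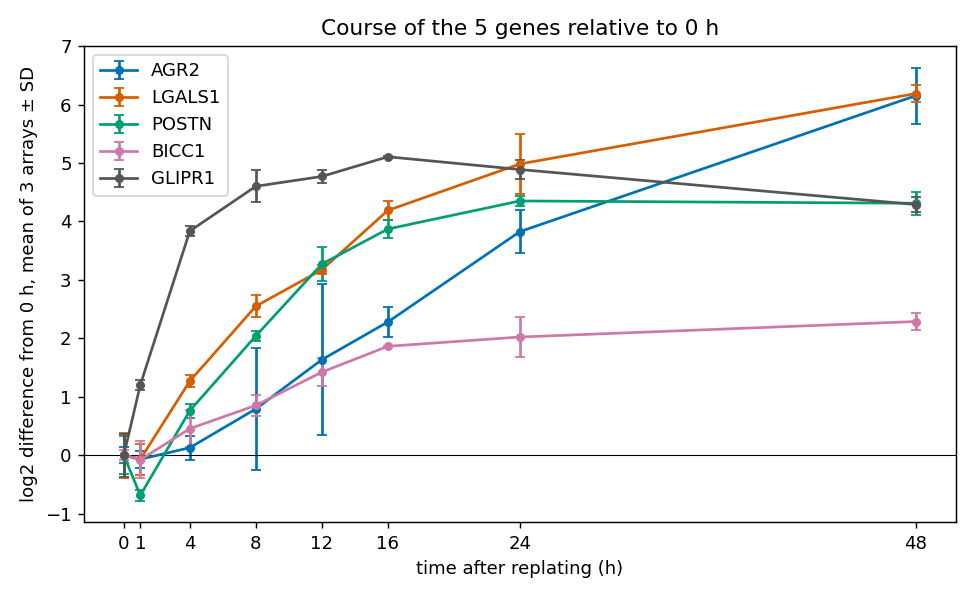
Log2 difference of each gene from its 0 h mean (vertical axis) against time after replating in hours; points are means of 3 arrays and bars are SD. GLIPR1 is at 3.84 at 4 h and falls back to 4.29 at 48 h, whereas AGR2 and LGALS1 are highest at 48 h, at 6.15 and 6.19.

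Between 12 h and 1 h, times that the choice of genes did not use, LGALS1, POSTN, BICC1 and GLIPR1, which stood above the 40th percentile on every array, rose by limma over all 24 arrays, with p adjusted by Benjamini-Hochberg over 17122 probe sets and a call requiring an adjusted p under 0.05 and at least 2-fold. AGR2 was called too, but entered the test only through arrays from 8 h on, where it was high. Of all 9966 genes 9.04% rose by the same rule. POSTN rose by 3.96 ± 0.17 (log2 difference ± SE, adjusted p = 4.8e-18), GLIPR1 by 3.57 ± 0.15 (4.8e-18), LGALS1 by 3.24 ± 0.20 (1.2e-14), AGR2 by 1.70 ± 0.50 (0.0082) and BICC1 by 1.50 ± 0.20 (3.3e-07). For each of them all 3 arrays at 12 h were above all 3 at 1 h, as they were for 21.8% of all probe sets tested. For AGR2 this rested on a signal of 10.0 on 1 array at 12 h against 9.12 on 1 at 1 h, both near the bottom of the arrays. Neighbouring times of a smooth course resemble each other, and the rise from 1 h to 12 h is a part of the rise to 16 h that chose the genes. Calls at 12 h, and at the steps up to it, were therefore likely from the choice itself. They show when the genes rose and are no independent support that they rose.

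The call for AGR2 depended on settings and on single arrays. With the larger pseudocount (73.85) the difference was 0.84 (limma adjusted p = 0.019), under 2-fold, and in a fit of only the arrays at 1 h and 12 h the adjusted p was 0.07. Without replicate 2 of 12 h the difference was 1.31 (limma adjusted p = 0.076), and without replicate 3 of 12 h it was 1.35 (0.068). Without replicate 1 of 12 h, the array that stayed at the 0 h level, it was 2.45. No such loss of a call befell the other genes on leaving out any array.

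Step by step, the 5 genes rose at different times. At 4 h against 1 h, GLIPR1 (2.63 ± 0.15, limma adjusted p = 7.2e-15), POSTN (1.45 ± 0.17, 5e-08) and LGALS1 (1.34 ± 0.20, 3.3e-06) rose, 3 of 5 beside 6.42% of all genes tested. BICC1 (0.53 ± 0.20, 0.057) and AGR2 (0.20 ± 0.50, 0.84) did not pass. At 8 h against 4 h, POSTN and LGALS1 each rose by 1.28 (4.5e-06 and 4.5e-05), 2 of 5 beside 1.17%. GLIPR1 differed by 0.77 (0.00086), short of 2-fold, BICC1 by 0.40 (0.26) and AGR2 by 0.66 (0.5). At 12 h against 8 h POSTN alone passed, at 1.23 ± 0.17 (4.8e-05), 1 of 5 beside 0.281%. The other four differed by 0.17 to 0.84, with adjusted p from 0.14 to 0.74. POSTN was thus called at each of the 3 steps, and LGALS1 at the first and the next of them.

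**Figure D3:**
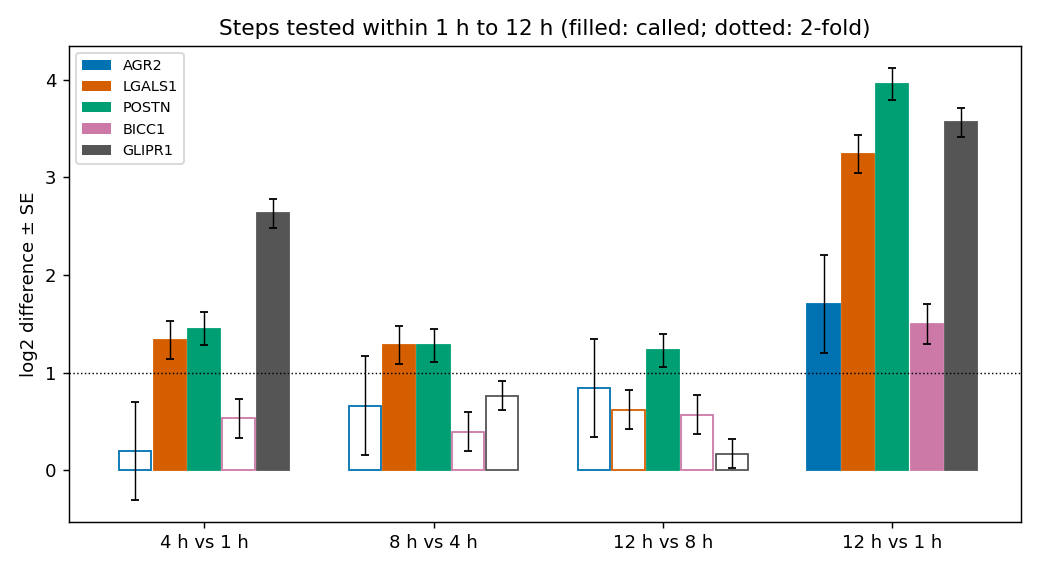
Log2 difference with its SE (vertical axis) of each gene in the 4 comparisons tested between 1 h and 12 h, 1 bar per gene, filled where called, with a dotted line at 2-fold. POSTN is filled at all 3 steps, at 1.45, 1.28 and 1.23, and all 5 genes are filled at 12 h against 1 h. AGR2 entered the test only through arrays from 8 h on, where it was high, and its call was lost with a larger pseudocount.

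After 12 h the steps are descriptions. At 16 h against 12 h the log2 differences ran from 0.34 for GLIPR1 to 1.02 for LGALS1, and at 24 h against 16 h from -0.22 for GLIPR1 to 1.55 for AGR2. At 48 h against 24 h AGR2 differed by 2.33, LGALS1 by 1.21, BICC1 by 0.26, POSTN by -0.04 and GLIPR1 by -0.60. The largest step of AGR2 was therefore the last one, and the largest of GLIPR1 was that at 4 h against 1 h.

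Probe sets of 1 gene did not always tell the same story. The 3 probe sets of GLIPR1 correlated at Pearson's r of 0.953 to 0.981 over the 24 arrays (log2 scale, a description), but 214085_x_at and 204221_x_at, whose names mark possible cross-hybridization with similar transcripts, lacked the fall. The mean of 214085_x_at was 2978 at 4 h and between 3941 and 4189 at every time from 12 h to 48 h, and its arrays at 48 h overlapped those at 24 h. The decline of GLIPR1 at 48 h was therefore seen on 1 of its 3 probe sets. Both _x_at probe sets rose at 12 h against 1 h, by 2.51 (limma adjusted p = 1.1e-14) and 2.19 (3.6e-09).

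For BICC1, 220580_at ran between 39.5 and 237.3 over all arrays and correlated with 213429_at at 0.321. It was at 157.8, 237.3 and 196.2 at 48 h, against 110.8, 138.3 and 133.0 at 0 h, a log2 difference of 0.55 where 213429_at gave 2.29. At 12 h against 1 h it differed by 0.08 ± 0.38 (limma adjusted p = 0.91). The rise of BICC1 by 12 h was thus read by 1 of its 2 probe sets. For POSTN, 214981_at was below its array's 40th percentile on 23 of 24 arrays, at 3.56 to 82.8, did not pass the filter and correlated with 210809_s_at at -0.0573. AGR2 and LGALS1 have 1 probe set each, so neither has a second reading.

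**Figure D4:**
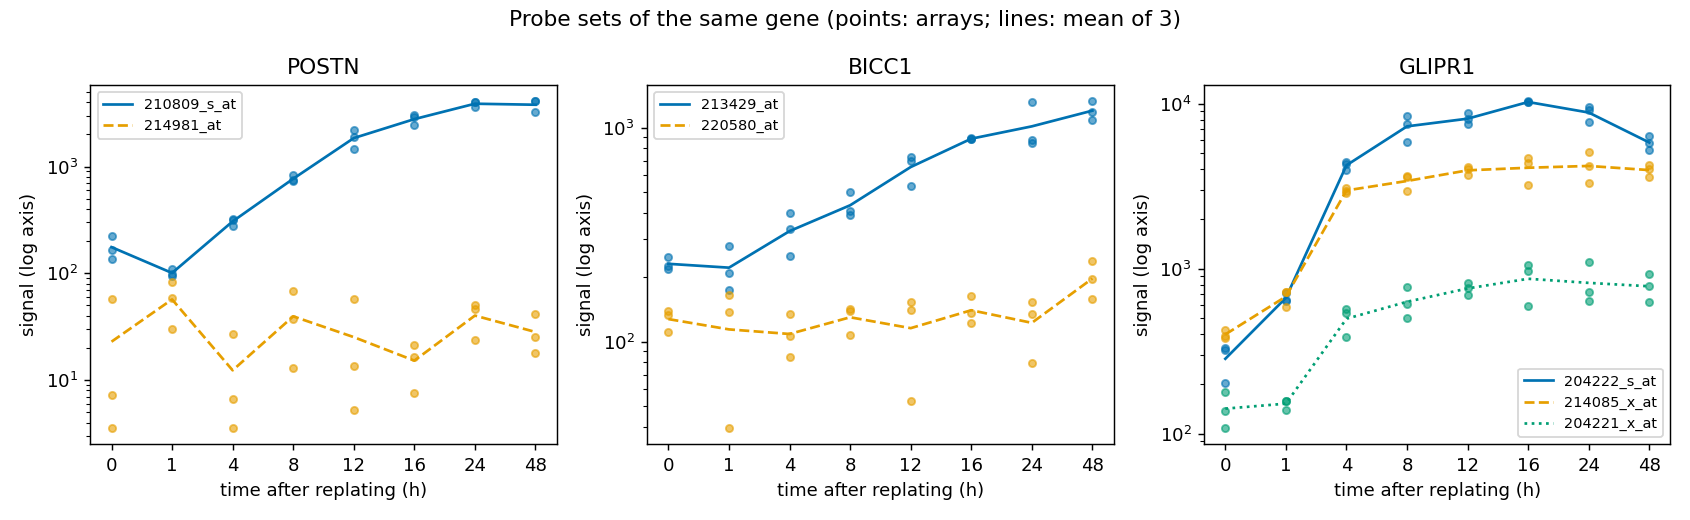
Signal of each probe set of POSTN, BICC1 and GLIPR1, on a log axis, against time after replating in hours, at equal spacing; points are arrays and lines join the means of 3. The dim probe set of POSTN stays at or under 82.8 signal units on every array, 220580_at of BICC1 differs by 0.55 at 48 h from 0 h, and the _x_at probe sets of GLIPR1 stay level from 12 h.

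Over the 24 arrays LGALS1, POSTN and BICC1 followed each other most closely, with r of 0.962 to 0.966 between any pair of them. AGR2 correlated with them at 0.812 to 0.895, and GLIPR1 at 0.775 to 0.823. AGR2 and GLIPR1, the latest and the earliest, correlated at 0.514. All points share the same 8 times and the same arrays, and the genes were chosen for rising together. Once each array's deviation from its own time's mean was taken, the correlations of all 10 pairs ran from -0.302 to 0.213, so the likeness lay between times and not between arrays of 1 time.

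The genes whose course was most like that of each member, by Pearson's r over the 24 arrays among the 9966 genes, divided in the same way. The course of LGALS1 was followed by PROCR (r = 0.983), the endothelial protein C receptor, by HSPB1 (0.981), a small heat shock protein, and by SPANXB1 (0.975). PROCR, with a mean of 3090.4 at 48 h against 432.4 at 0 h, was also among the nearest to POSTN (0.976) and to BICC1 (0.971). POSTN was further near TSPO (0.976), a protein of the outer mitochondrial membrane, and HMGB1 (0.976), a chromatin protein read by an _x_at probe set, and BICC1 was near LGALS1 itself (0.966) and HSPB1 (0.963). AGR2 had other company in SGCB (0.953), a sarcoglycan, PTTG1 (0.946), the securin of the cell cycle, again from an _x_at probe set, and SLC7A7 (0.942), an amino acid transporter, whose mean was 5211 at 48 h against 558.9 at 0 h and 2442 at 24 h. GLIPR1 ran with S100A2 (0.985), a calcium-binding protein with a mean of 24743 at 4 h against 216.1 at 0 h, and with CLIC1 (0.983), a chloride channel protein, and TPM4 (0.983), a tropomyosin of the actin cytoskeleton. TPM4, like GLIPR1, had its highest mean at 16 h (3635, with 1928 at 48 h).

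Relatives and partners of the 5 genes, taken from lists drawn up by role and without the 5 themselves, were tested at 16 h and at 48 h against 0 h, where 9.12% and 9.76% of all genes rose and 11.7% and 11.6% fell. With each array centred on its median the counts of genes higher and lower were 1443 and 679 at 16 h, instead of 909 and 1169, and 1498 and 773 at 48 h, instead of 973 and 1154. Over all genes the median log2 difference was -0.12 at 48 h and -0.16 at 16 h.

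Of the relatives and helpers of AGR2, 13 protein disulfide isomerases and thiol oxidases of the endoplasmic reticulum were measured of 19 listed. None rose and 2 fell at 48 h (median log2 difference -0.20), namely P4HB, a disulfide isomerase and prolyl hydroxylase subunit, and ERO1B, an oxidase of such isomerases. P4HB averaged 7473 ± 915.2 at 48 h against 15370.1 ± 836.1 at 0 h (SD, n = 3 each), a difference of -1.04 ± 0.12 (limma adjusted p = 9.8e-09), with its other probe set at -0.64. ERO1B, dim at 28.1 against 96.7, differed by -1.36 ± 0.52 (0.04). At 16 h 1 fell and none rose. With arrays centred on the median no member of this list was called at 48 h or 16 h, and at 48 h 1 was called without 0 h replicate 1, 0 h replicate 2 or 48 h replicate 3, and none without 48 h replicate 1. Of the mucosal secretory genes, which include the mucins AGR2 is known to help fold, 9 of 20 were measured, none rose and MUC2, an intestinal gel-forming mucin, fell at 48 h (-1.29 ± 0.49, 0.039), a call lost with centring and without 0 h replicate 1 or 48 h replicate 2. MUC2 was at 36.4 at 48 h against 99.5 at 0 h. With 9.76% of all genes higher at 48 h, no called rise in 2 lists of 13 and 9 genes says little about them.

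Among 7 measured galectins and galectin-binding genes of 12 listed, LGALS8, a galectin with 2 sugar-binding domains, rose at 48 h and none fell (list median -0.56). It averaged 996.1 ± 61.7 at 48 h against 373.9 ± 19.6 at 0 h (SD, n = 3 each), a difference of 1.37 ± 0.17 (limma adjusted p = 6.5e-08), but its other probe sets differed in sign. LGALS3BP, a secreted glycoprotein that binds galectins, differed by -0.56 (0.013) and LGALS4, an intestinal galectin, by -0.75 (0.081), and neither passed. No galectin was called at 16 h, in either direction, and 1 was called lower at 48 h without 0 h replicate 3 or 48 h replicate 2.

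Of 23 measured receptors and matrix partners of POSTN, of 24 listed, 5 rose and 2 fell at 16 h, and 3 rose and 2 fell at 48 h (median 0.37). THBS1, the matrix protein thrombospondin-1, averaged 1689.6 ± 434.3 at 48 h against 259.3 ± 39.7 at 0 h (SD, n = 3 each), higher by 2.60 ± 0.20 (limma adjusted p = 3.1e-12), although 1 of its other probe sets had the opposite sign. TNC, tenascin-C, a matrix protein that binds periostin, was higher by 2.40 ± 0.28 (2.3e-08) at 48 h and by 4.59 at 16 h, when it stood at 4507 ± 557.0. TGFBI, the closest relative of POSTN, averaged 5868 ± 335.1 at 48 h against 1824 ± 74.7 at 0 h, higher by 1.68 ± 0.12 (6e-13). Lower at 48 h were LOXL2, a collagen-crosslinking oxidase (-1.92 ± 0.53, 0.0046), and FN1, fibronectin (-1.57 ± 0.17, 3.8e-09). LOXL2 was dim at 19.5 against 108.4, with its other probe set at -0.43. FN1 was read by an _x_at probe set. Of its other probe sets 1 had the opposite sign, and the rest were also lower at 48 h, each by more than 2-fold. ITGAV, the alpha-v integrin subunit through which periostin acts, was called at 16 h (1.36) and was at 0.62 at 48 h, under 2-fold. FN1 and ITGAV were named after their values were seen. With centring the counts at 48 h were 4 higher and 2 lower.

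Of 13 measured partners of BICC1 and cystic kidney genes of 22 listed, 1 rose and 2 fell at 48 h (median -0.55). CNOT6, a deadenylase of the CCR4-NOT complex, which the fly protein Bicaudal-C recruits to RNA in Drosophila, averaged 466.2 ± 96.0 at 48 h against 209.4 ± 28.0 at 0 h (SD, n = 3 each), higher by 1.08 ± 0.22 (limma adjusted p = 0.00017), and without 48 h replicate 1 or 2 it was not called. GANAB and PRKCSH, the subunits of glucosidase II, fell by 1.24 and 1.32 (9.5e-07 and 0.00081), each read by an _x_at probe set. The other probe set of each was at -0.77 and -0.57, under 2-fold. At 16 h 2 had fallen, and 4 without 16 h replicate 2. Of the CAP superfamily of GLIPR1, 1 member of 12 listed was measured, CRISPLD2, at 0.83 ± 0.51 (0.21).

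**Figure D5:**
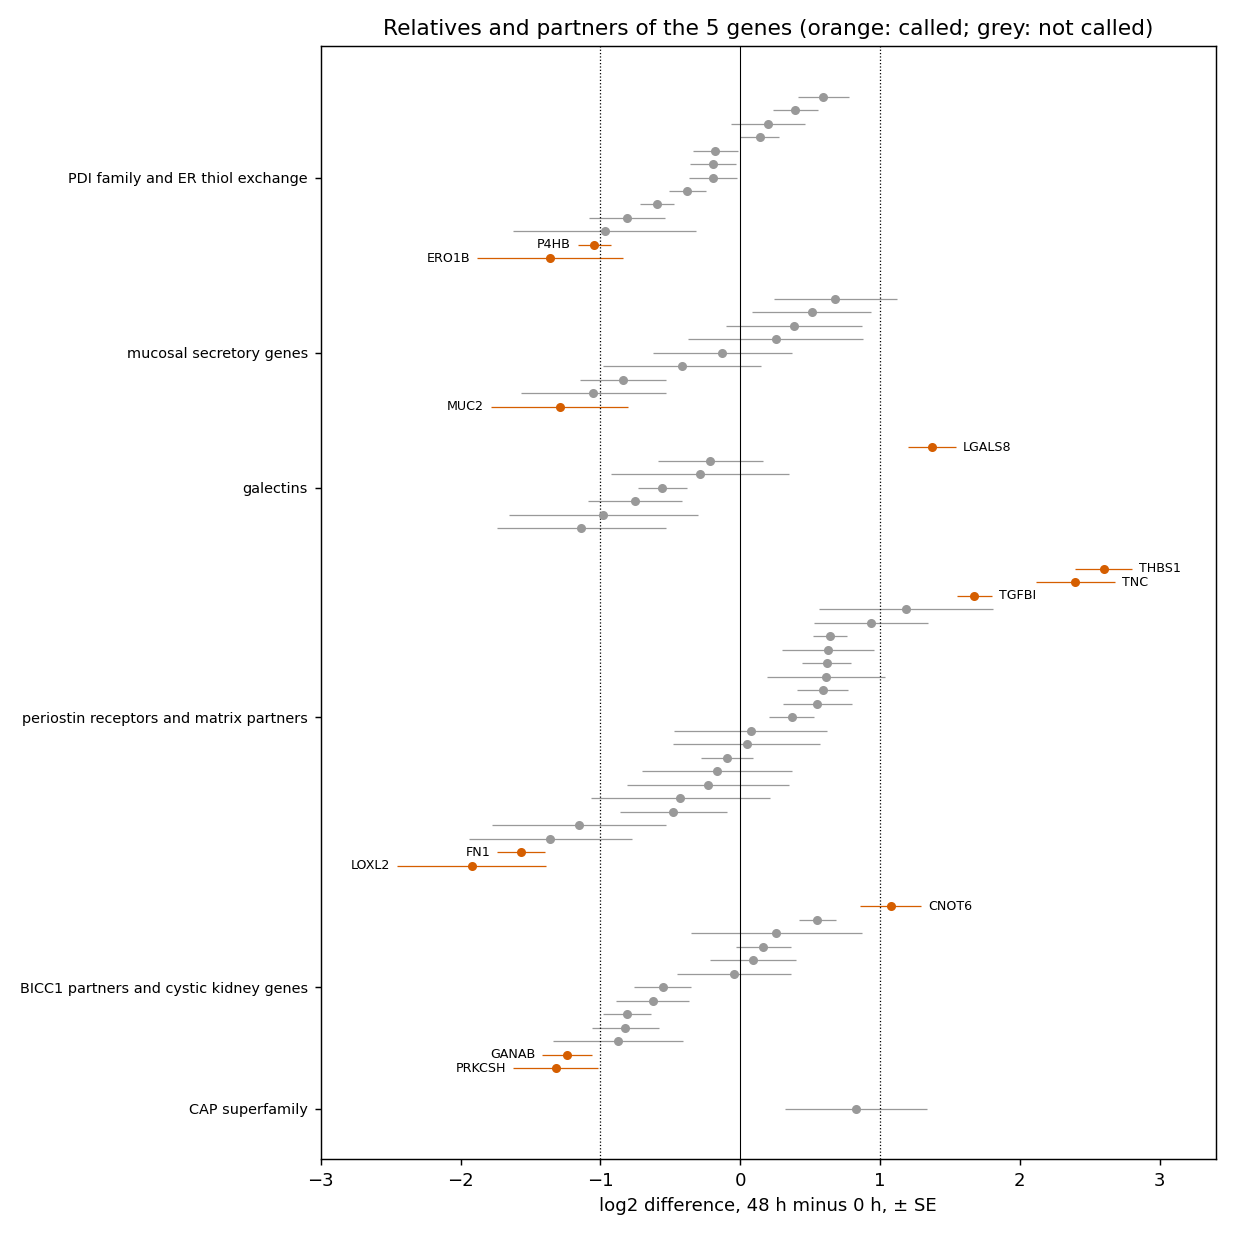
Log2 difference at 48 h minus 0 h with its SE (horizontal axis) for each measured gene of the 6 lists, with 1 dot per gene, orange where called and grey where not, and dotted lines at 2-fold. THBS1, TNC and TGFBI lie farthest right, at 2.60, 2.40 and 1.68, and orange dots on the left include LOXL2 at -1.92 and FN1 at -1.57.

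Markers of the cells that the cultures could hold were tested in the same way. Of all genes, 9.76% rose and 11.6% fell at 48 h, and 9.12% rose and 11.7% fell at 16 h. All 14 hepatocyte markers, ALB among them, were measured, and 6 had fallen at 16 h and 13 at 48 h. Their summed signal was 125721 to 140511 at 48 h, against 415901 to 453717 at 0 h, with CYP2E1, an alcohol-metabolizing cytochrome, lower by 7.43 on the log2 scale (limma adjusted p = 6.1e-22) and APOB, the apolipoprotein of VLDL, by a difference of -4.70 (2e-19). Of 12 biliary markers 6 were measured and 2 rose, KRT19 (2.25 ± 0.15, 2.9e-14) and KRT7 (1.33 ± 0.40, 0.0093), and the other four were not called, SPP1 at 0.87, SOX9 at -0.42, MMP7 at -0.50 and AQP1 at -0.95. The summed signal was 16488 to 20843 at 48 h against 5216 to 5822 at 0 h, and KRT19 made up most of it, with a mean of 16145 at 48 h against 3357 at 0 h. EPCAM, CFTR, SCTR and CLDN4 did not pass the filter, with highest signals of 51.8, 94.6, 101.1 and 34.0. Their part in the rise of the 5 genes was not tested.

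In liver POSTN and LGALS1 are known from activated stellate cells, so markers of fibroblasts and stellate cells were set beside them. Of 14 such markers 11 were measured and 3 rose at 48 h, beside 9.76% of all genes. They were LUM (lumican, 2.08 ± 0.26, limma adjusted p = 6.9e-08), DCN (decorin, 1.34 ± 0.19, 5.3e-07, an _x_at probe set) and ACTA2 (smooth muscle actin, 1.17 ± 0.15, 8.7e-08, with its other probe set of opposite sign). The summed signal was 3977 to 5208 at 48 h against 2108 to 2419 at 0 h, and ACTA2 and DCN carried most of it, with means of 2611 and 1004 at 48 h against 1157 and 379.8 at 0 h. COL6A3, a chain of type VI collagen, was called higher at 16 h (1.82) and was at 0.33 at 48 h. The highest signals on any array were 267.4 for COL1A1, 268.1 for THY1, 168.2 for COL6A3, 139.6 for DES, 115.5 for COL3A1, 114.7 for PDGFRB, 104.6 for COL1A2 and 95.9 for VIM, and PDGFRA, RGS5 and LRAT did not pass the filter. Markers other than those called at 48 h, COL6A3 and those not measured among them, were named after their values were seen. Of the endothelial markers 3 of 8 were measured and 1 fell, KDR (-2.15 ± 0.60, 0.0046), and of the leukocyte markers 4 of 8 were measured and 1 fell, CD163 (-1.63 ± 0.58, 0.028, an _x_at probe set). Their summed signals were 75.1 to 154.6 at 48 h against 431.9 to 452.1 at 0 h and 512.2 to 617.0 at 48 h against 935.8 to 1294 at 0 h. With 11.6% of all genes lower at 48 h, 1 called fall among 3 or 4 genes says little about them.

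Of 2 controls of RNA quality, ACTB differed more between times than GAPDH. The ratio of the 3′ to the 5′ control probe set grows as RNA is broken. For ACTB it was 1.02 to 1.27 at 48 h and 2.04 to 6.91 at 0 h, with 6.91 on replicate 2. For GAPDH it was 0.90 to 0.94 at 48 h and reached 1.49 at 8 h and at 24 h. At 0 h the GAPDH ratio was 1.11 on replicate 1, 1.10 on replicate 3 and 1.92 on replicate 2. Without that array the 48 h differences from 0 h were 6.20 for AGR2, 6.17 for LGALS1, 4.48 for POSTN, 2.25 for BICC1 and 4.08 for GLIPR1, and the list around POSTN had 3 members higher and 3 lower at 48 h. At 12 h and 1 h, the times of the test of the 5 genes, the ACTB ratio was 1.06 to 1.17 and 1.57 to 1.85. The GAPDH ratio was 0.90 to 1.02 at 12 h and 1.00 to 1.12 at 1 h. The part of RNA quality in the result of that test was not tested.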

How the data were processed

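Gene expression was measured on 24 arrays. The authors made the intensity values with MAS5 and deposited them unlogged, with 1 value for each probe set and array, per the submitters' processing notes; its version is not given in the sources used here. The 2% trimmed mean of each array was about the same, so arrays had been scaled. Before taking log2, 18.04 was added to every signal, which is the 20th percentile over the 22215 probe sets that are not controls. A probe set was tested where 3 or more arrays exceeded their own 40th percentile, as 17122 did. Symbols came from the platform annotation (1 symbol for 19065 probe sets, several for 1043, none for 2107), and a gene is represented by its brightest tested probe set.

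The fit was made by limma 3.58.1 (R 4.3.3) on group means of the 8 times (eBayes with trend, 16 residual degrees of freedom), with Benjamini-Hochberg adjustment over the 17122 probe sets, two-sided. The fit was tested on simulated data. Figures used matplotlib 3.10.9 in Python 3.11.15. The labels number replicates without saying whether cultures were separate, so a p-value covers the spread of these samples alone, possibly a technical one. No pair of arrays was identical, and the number of arrays limits the precision. The 5 genes and all lists were chosen with earlier results of these data known. Named besides the 5 were the 3 genes of highest correlation with each, and up to 4 called members per list with the largest difference at 48 h, or where fewer than 2 were called, the brightest 2. Genes outside this rule are marked in the text as named after their values were seen. Alternatives varied the pseudocount, normalization, filter, probe set choice, arrays fitted and replicate block, and left out each array.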

Additional observations from a re-analysis of the deposited data

How the results depend on the processing

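Of the 276 results for the 5 genes at 1 h to 12 h under the alternatives that keep all arrays or fit only the groups compared, 274 kept their direction and their side of the threshold, and of the 768 with 1 array left out, 760 did. The exceptions were AGR2 at 12 h against 1 h, which was 0.84 (limma adjusted p = 0.019) with a pseudocount of 73.85, under 2-fold, and 1.70 (0.07) in a fit of only these groups, with an adjusted p of 0.0036 to 0.07 over the alternatives that keep all replicates. Leaving out 1 array gave 1.31 to 2.45. For 220580_at of BICC1, never called, the sign turned at 4 h against 1 h without 1 h replicate 2 (-0.43) or 4 h replicate 3 (-0.06), at 12 h against 8 h without 12 h replicate 1 (0.16), and at 12 h against 1 h without 1 h replicate 2 (-0.44), 12 h replicate 2 (-0.10) or 12 h replicate 3 (-0.15), within leave-one-out ranges of -0.43 to 0.40, -0.47 to 0.16 and -0.44 to 0.48. Of the alternatives for the 48 h differences from 0 h, chosen after seeing the data, AGR2 was 7.97 with no pseudocount and 4.52 with the larger one, POSTN 3.96 and BICC1 2.06 with the larger one, and BICC1 2.55 with median centring. Counts of genes moved too. With the larger pseudocount 274 genes instead of 432 were lower at 4 h against 1 h, 64 instead of 117 higher at 8 h against 4 h, and 4 instead of 7 list members lower at 48 h. At 12 h against 8 h 9 instead of 15 genes were lower with no pseudocount, and 6 to 16 with 1 array left out, the lowest without 8 h replicate 3 and 7 without 8 h replicate 1 or 12 h replicate 2. Median centring gave 1443 higher and 679 lower genes at 16 h, 1498 higher at 48 h, 8 higher and 1 lower list member at 16 h (instead of 5 and 5), and 3 lower at 48 h, and the stricter filter 4 lower at 48 h. The cause was not tested. As replicate numbers recur at each time, a replicate block was fitted: AGR2 at 12 h against 1 h kept its call (adjusted p = 0.0042), the count of genes higher was 902 instead of 901, and no call of the 5 genes changed. Same-numbered arrays did not deviate together in the comparisons among 1 h, 4 h, 8 h and 12 h (correlations from -0.0294 to 0.038). The other times were not checked, and the labels do not say whether such arrays share a culture. Signals near the bottom of the arrays, as of AGR2 until 4 h, limit what a fold can say.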
